A study of Arabidopsis thaliana with 103 samples.

Results

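The transcript levels and chromatin binding of 9 genes were followed, out of 64790 genes and transposable elements in the expression tables. These genes serve the pathway that makes and uses small interfering RNAs (siRNAs) through the plant RNA polymerases Pol IV and Pol V. They were chosen by name and role, as *NRPE1* (AT2G40030), *NRPD1* (AT1G63020), *NRPD2* (AT3G23780), *SHH1* (AT1G15215), *CLSY1* (AT3G42670), *RDR2* (AT4G11130), *DCL3* (AT3G43920), *AGO4* (AT2G27040) and *AGO6* (AT2G32940). All 9 were found in every RNA-seq library and in the TAIR10 annotation. The study asked how the MOM1 complex of Arabidopsis thaliana is tied to RNA-directed DNA methylation (RdDM) and to the MORC proteins. RNA-seq covered 12-day-old whole seedlings of 14 groups with 3 libraries each, all in the Col-0 ecotype. The smaller set held *nrpe1-11* and its own Col-0 libraries. The larger set held Col-0, *aipp3-1*, *aipp3-2*, *mom2-1*, *mom2-2*, *morc6-3*, *morchex*, *phd1-2*, *phd1-4*, *pial1-2*, *pial2-1* and the double mutant *pial1/2*. *morchex* carries *morc1-2*, *morc2-1*, *morc4-1*, *morc5-1*, *morc6-3* and *morc7-1*. The *phd1* alleles are CRISPR/Cas9 insertions of a single T that bring an early stop, and all other alleles are T-DNA insertions. The 18 ChIP-seq peak lists came from unopened flower buds. They covered MORC6, PIAL2, PHD1, PHD3 and AIPP3 with a Myc or FLAG tag, expressed from their own promoters in mutant plants, and 8 further lines that carried MORC6-Myc in Col-0, *morc6* or *pial1/2* plants.

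RdDM places cytosine methylation on transposons and repeats and keeps them silent. Pol IV, recruited to chromatin by SHH1 and by remodelers of the CLASSY family such as CLSY1, starts short transcripts that RDR2 copies into double-stranded RNA. DCL3 cuts this RNA into siRNAs, which are loaded onto AGO4 or AGO6 and pair with transcripts made by Pol V, where the methyltransferase DRM2 is brought in. NRPD1 and NRPE1 are the largest subunits of Pol IV and Pol V, and NRPD2 is the second-largest subunit of both.

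On the TAIR10 build, *NRPE1* lies at chr2:16714460-16723718 on the plus strand, *NRPD1* at chr1:23354685-23362589 on the minus strand and *NRPD2* at chr3:8567572-8574209 on the minus strand. *SHH1* lies at chr1:5238044-5240051 (plus), *CLSY1* at chr3:14755798-14760629 (minus) and *RDR2* at chr4:6780449-6784632 (plus). *DCL3* lies at chr3:15753387-15760859 (plus), *AGO4* at chr2:11536502-11542391 (minus) and *AGO6* at chr2:13971916-13977521 (minus). *SHH1* shares 23 bp of its end with the antisense gene AT1G15220 and *DCL3* shares 43 bp with antisense AT3G43930. The kit marks strand, but the authors counted at default settings, which do not use it, so reads of a gene and its partner cannot be told apart there. *NRPD2* has a near copy, AT3G18090 (*NRPD2B*), between which and *NRPD2* the authors' estimated counts may have divided shared reads. It stood at 6.92 to 11.0 CPM (counts scaled to library size) over the 42 libraries.

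Upstream sequences of *CLSY1*, *DCL3* and *NRPD2* carry the binding results given further on, since these were the members with MORC6-Myc peaks in every list made in plants with functional PIAL genes. Each is written 5′ to 3′ on the strand of its gene from the TAIR10 reference. Capitals mark bases that lie inside a peak interval of all 7 MORC6-Myc lists from plants other than *pial1/2*, except in the *CLSY1* window, where they mark bases inside an interval of all 10 MORC6-Myc lists. The *CLSY1* window (chr3:14761917-14762166, minus strand) begins 1537 bases before the annotated start, and its 151 capitals also lie in an interval of both PIAL2-Myc replicates and of PHD1-FLAG replicate 1. The *DCL3* window (chr3:15753137-15753386, plus strand) ends at the base before the start, and the *NRPD2* window (chr3:8574610-8574859, minus strand) begins 650 bases before it.
CLSY1: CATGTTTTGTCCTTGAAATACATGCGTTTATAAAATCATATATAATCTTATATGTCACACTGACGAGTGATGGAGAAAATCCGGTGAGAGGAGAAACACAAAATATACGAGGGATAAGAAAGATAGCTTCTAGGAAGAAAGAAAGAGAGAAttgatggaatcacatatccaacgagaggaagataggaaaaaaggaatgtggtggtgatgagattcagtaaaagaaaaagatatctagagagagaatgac
DCL3: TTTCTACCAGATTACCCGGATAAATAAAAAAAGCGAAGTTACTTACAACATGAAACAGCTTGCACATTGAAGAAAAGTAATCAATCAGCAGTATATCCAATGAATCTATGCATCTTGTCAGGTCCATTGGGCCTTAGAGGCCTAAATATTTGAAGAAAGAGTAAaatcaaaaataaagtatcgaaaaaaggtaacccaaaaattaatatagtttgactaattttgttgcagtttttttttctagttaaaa
NRPD2: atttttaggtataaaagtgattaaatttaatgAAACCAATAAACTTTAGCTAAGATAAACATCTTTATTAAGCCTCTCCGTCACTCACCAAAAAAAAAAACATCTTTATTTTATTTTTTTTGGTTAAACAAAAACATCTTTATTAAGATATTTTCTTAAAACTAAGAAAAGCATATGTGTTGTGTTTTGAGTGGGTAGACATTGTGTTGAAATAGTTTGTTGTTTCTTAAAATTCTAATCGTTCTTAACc

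These windows were AT-rich, with a GC content of 24.8% in *NRPD2*, 30.4% in *DCL3* and 35.2% in *CLSY1*. The 250 bases before the start of each member were searched on both strands for 4 motifs, the telo box (AAACCCTA), the site II element (TGGGCC), the G-box (CACGTG) and the E2F site (TTTCCCGC). Among the members other than *CLSY1*, the site II element was found in *DCL3*, where it begins 123 bases before the start and lies within the capitals above, and in *SHH1*, where its reverse complement begins 55 bases before the start. This motif is held by 13.7% of the 27443 promoters of the same length, and the other 3 motifs had no match among them.

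The library totals ranged from 13164594 to 33464598 counts, and the 9 genes held between 18 counts (*AGO6*) and 1716 counts (*AGO4*) in a library. Leaf markers summed to between 21975 and 50271 CPM, and the flower markers *AP3*, *PI* and *AG* to between 1.21 and 13.6 CPM, over the 42 seedling libraries. The highest flower sum was that of *pial2-1* replicate 2, which stood apart from the other *pial2-1* libraries (3.21 and 2.94 CPM) through *PI* (13.5 CPM). The mutated genes were checked first. *AIPP3* fell from 33.6 to 37.3 CPM in the Col-0 libraries to 9.75 to 10.4 CPM in *aipp3-1* and 3.54 to 4.39 CPM in *aipp3-2*. *MOM2*, *PIAL2* and *MORC6* were likewise below every Col-0 library in their T-DNA mutants, whereas *PIAL1* in *pial1-2* (17.6, 20.2 and 18.7 CPM) and *PHD1* in the *phd1* alleles overlapped Col-0. In *pial1/2*, *PIAL1* was at 20.4, 19.0 and 23.9 CPM, above the 18.8, 16.8 and 19.0 CPM of Col-0 (adjusted p of 1). In *morchex*, *MORC1*, *MORC2*, *MORC6* and *MORC7* fell, *MORC5* was too low to be tested, and *MORC4* rose, to 33.2, 29.3 and 28.2 CPM from 13.8, 14.5 and 14.1 CPM (log2 1.10, adjusted p = 0.000595). Reads in an insertion line can come from beyond the insertion, and a single-base insertion need not change transcript level, so *PIAL1*, *PHD1*, *MORC4* and *MORC5* do not check the labels.

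Per unit length, in TPM (transcripts scaled to the library and to length), *AGO4* was the most abundant of the 9 (15.9 ± 2.25, SD over 42 libraries) and lay above *NRPD2* in 42 of 42 libraries. *NRPD2* (8.33 ± 0.605) and *SHH1* (7.95 ± 1.22) followed and could not be ordered, with *NRPD2* higher in 23 of 42. *CLSY1* (3.61 ± 0.661), *RDR2* (2.73 ± 0.328), *DCL3* (2.34 ± 0.323) and *NRPE1* (2.27 ± 0.540) came next. *DCL3* and *NRPE1* changed places in 19 of 42 libraries, while *CLSY1* exceeded *RDR2* in 39. The Pol IV subunit *NRPD1* (1.57 ± 0.311) was lower than *NRPE1* in 39 of 42 libraries, and *AGO6* was the lowest (0.784 ± 0.245). The libraries in which *NRPD1* was higher were those of *nrpe1-11* (*NRPE1* at 0.65, 0.69 and 0.67 TPM), which are included in the *NRPE1* mean. The order was the same in FPKM. The plot of CPM by library gives all values. When the 14 groups were ordered by mean CPM, 13 of 13 neighbouring pairs overlapped in 6 of the genes, and 12 of 13 in *NRPE1*, *SHH1* and *AGO4*, which says nothing of groups farther apart in the order.

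**Figure D1:**
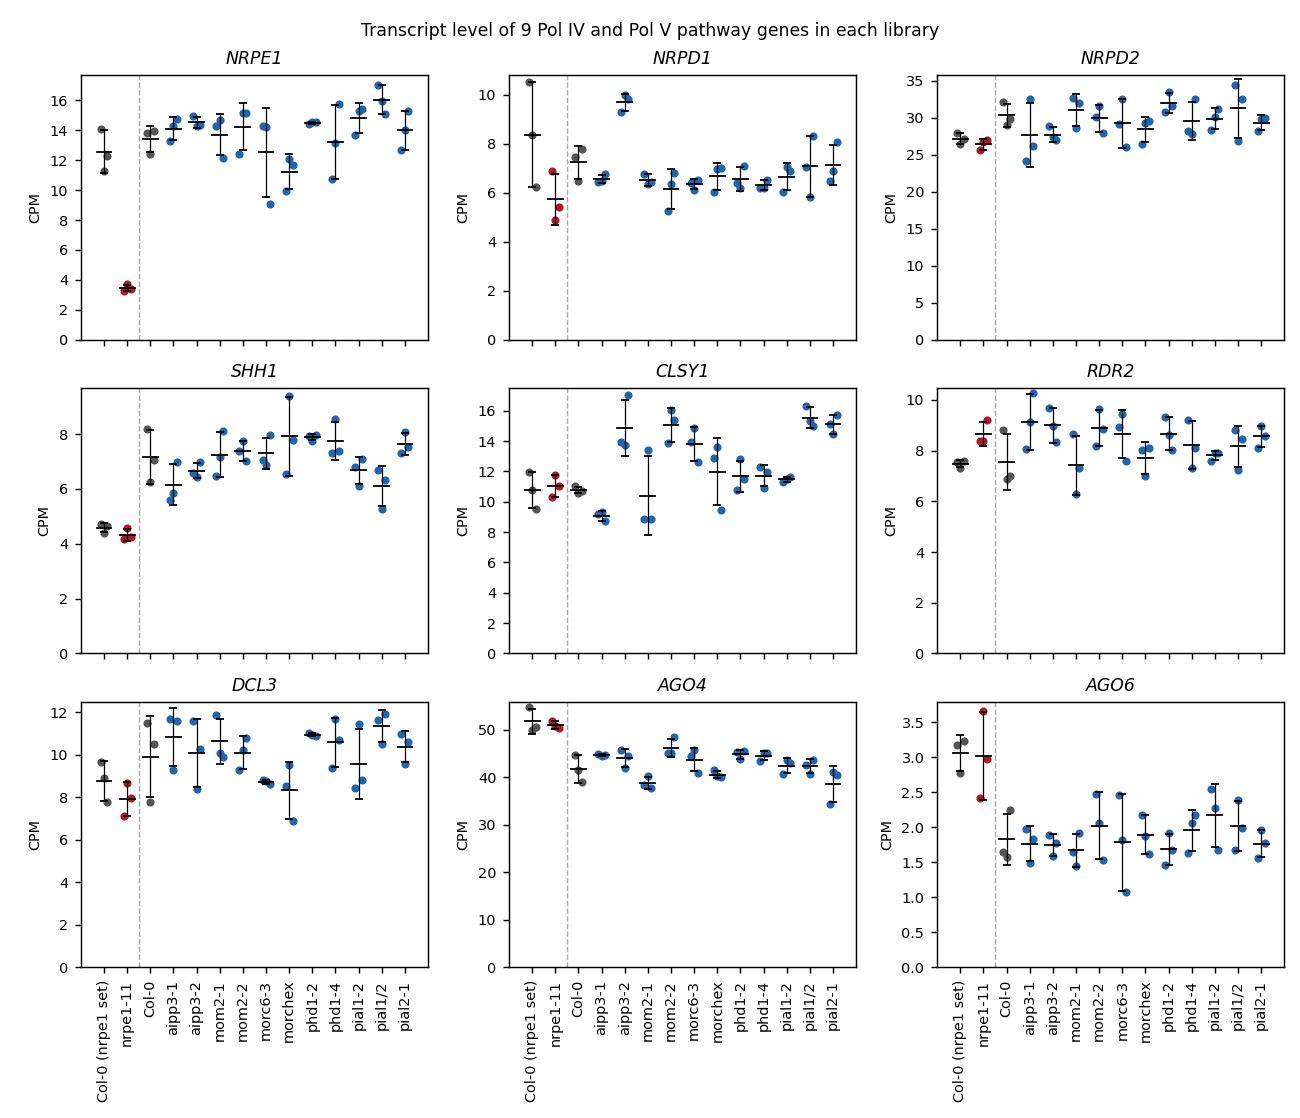
Transcript level in CPM (y axis, from 0) of the 9 genes in each of 42 libraries, by genotype (x axis). Points are libraries, horizontal bars are group means and error bars are the SD of 3 libraries, with Col-0 in grey, *nrpe1-11* in red and other mutants in blue. The dashed line parts the *nrpe1-11* set from the larger set. *NRPE1* in *nrpe1-11* (3.28 to 3.69 CPM) lies below all other libraries.

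The first comparison addressed what the loss of Pol V does to transcripts of the rest of the pathway. *NRPE1* itself fell in *nrpe1-11*. It stood at 14.1, 11.3 and 12.3 CPM in the Col-0 libraries of this set and at 3.28, 3.69 and 3.40 CPM in the mutant. The groups did not overlap, and the log2 fold change was −1.85 (SE 0.11, edgeR quasi-likelihood test, adjusted p = 0.00156, n = 3 each). It was the 1 member called at an adjusted p under 0.05, where 0.126% of the 19876 tested features were called lower and 0.408% higher. Per the study's reporting summary, replicates were made independently and mutants were grown beside their controls, but whether the libraries of a group came from separate plantings is not given in the sources used here, so p-values measure the spread between these libraries.

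None of the other 8 members passed the test in *nrpe1-11*, with 2 of them at an unadjusted p under 0.05 and 0 called by DESeq2. *NRPD1*, the largest subunit of Pol IV, was at 6.91, 4.89 and 5.41 CPM in *nrpe1-11* and at 10.5, 8.34 and 6.25 CPM in Col-0. These ranges overlapped, and the log2 fold change of −0.53 had a 95% interval from −1.06 to −0.01. *RDR2* was at 8.39, 8.38 and 9.18 CPM in the mutant and 7.54, 7.32 and 7.59 CPM in Col-0. All 3 mutant libraries were above Col-0, by a log2 fold change of 0.22 (95% interval 0.02 to 0.42), which did not pass over all features (adjusted p of 1). The effector *AGO4* had a log2 fold change of −0.01 (95% interval −0.14 to 0.12), and that of *NRPD2* was −0.03 (−0.16 to 0.10). *AGO6*, with few counts, was bounded less tightly, at −0.01 (−0.45 to 0.43).

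In the larger set, 11 mutants were each compared with the same 3 Col-0 libraries, so their values are not independent of each other. There, 7 features were called in *mom2-1*, 34 in *pial2-1*, 38 in *pial1-2* and 99 in *pial1/2*, but 2081 to 3810 in the other mutants. Same-numbered libraries deviated together with Col-0 (r above 0.1 in all 3 pairs) only in *mom2-1*, *pial2-1* and *pial1/2*. The labels name no batch inside this set. A part of one in these calls was not tested and cannot be told apart from genotype. Over all 12 mutants, 6 of 108 gene-by-mutant comparisons passed. Of the 6, 4 concerned *CLSY1* and 1 *NRPD1*, all of them higher in the mutant, beside the fall of *NRPE1* in its own mutant. Of all features, 0.408% were called higher and 0.126% lower in *nrpe1-11*, and 0.489% and 0.0101% in *pial1/2*. These shares were 8.57% and 9.71% in *aipp3-2*, 6.16% and 9.42% in *mom2-2*, and 5.60% and 8.48% in *morc6-3*. In 7 mutants 0 of 9 members passed in the edgeR test, where 3 comparisons had an unadjusted p under 0.05 and DESeq2 called 1. The share of features called higher and lower was 5.19% and 5.19% in *aipp3-1*, 0.0152% and 0.0203% in *mom2-1*, 7.54% and 9.35% in *morchex*, 7.64% and 9.09% in *phd1-2*, 9.04% and 10.2% in *phd1-4*, 0.0759% and 0.116% in *pial1-2*, and 0.101% and 0.0708% in *pial2-1*. The matrix of log2 fold changes gives each value. *NRPD2*, *SHH1*, *RDR2*, *DCL3*, *AGO4* and *AGO6* passed in 0 of 12 mutants in edgeR and in DESeq2, with 1 unadjusted p under 0.05 (*RDR2* in *nrpe1-11*) and log2 fold changes between −0.25 (*DCL3* in *morchex*) and 0.29 (*RDR2* in *aipp3-1*).

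**Figure D2:**
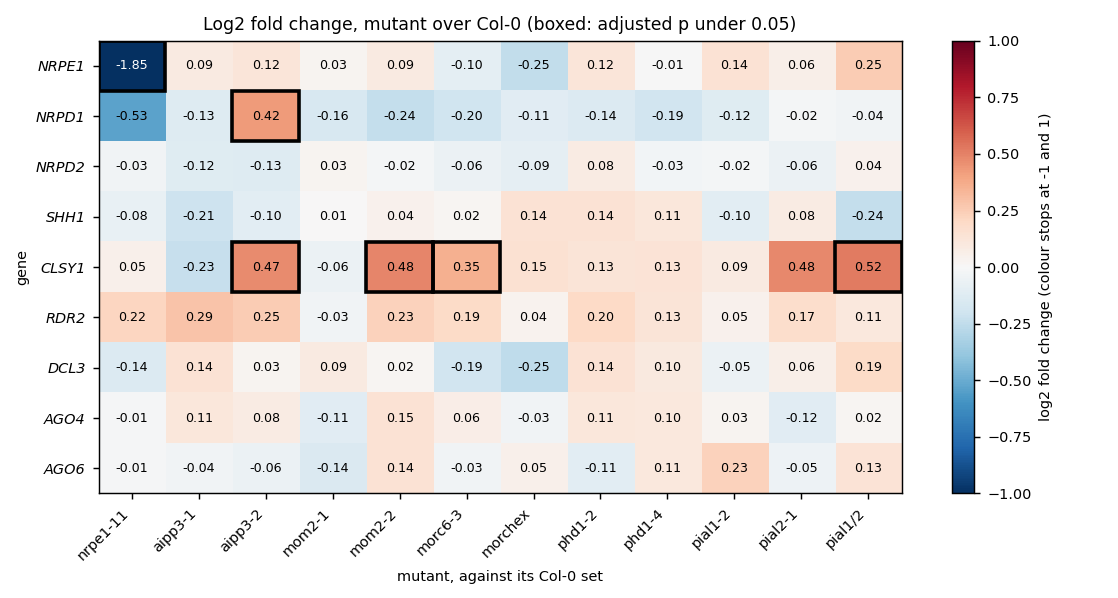
Log2 fold change of each of the 9 genes (rows) in each of 12 mutants (columns) over the Col-0 libraries of its set, printed in the cells and coloured from blue (lower) to red (higher). Black boxes mark an adjusted p under 0.05 over all tested features (edgeR quasi-likelihood test, 3 libraries each). The boxes lie on *NRPE1* in *nrpe1-11*, *NRPD1* in *aipp3-2* and *CLSY1* in 4 mutants.

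*CLSY1*, a chromatin remodeler that recruits Pol IV, was the member that changed most often. It stood at 11.0, 10.6 and 10.7 CPM in Col-0 of the larger set and at 11.9, 10.8 and 9.54 CPM in Col-0 of the *nrpe1-11* set. In *pial1/2*, mutated in the genes of the SUMO ligases PIAL1 and PIAL2, it was at 16.3, 15.3 and 15.0 CPM. Every double mutant library was above every Col-0 library, and *CLSY1* rose by 1.44-fold (log2 0.52, SE 0.08, adjusted p = 0.0431), where 0.489% of features were called higher and 0.0101% lower. In *pial2-1* it was at 15.1, 14.5 and 15.7 CPM. These libraries too were above Col-0, with a log2 fold change of 0.48 (95% interval 0.30 to 0.66), but the adjusted p was 0.112 in edgeR and 0.0463 in DESeq2, and 0.101% of features were called higher. Without *pial2-1* replicate 2, the library with high *PI*, the log2 fold change was 0.52 (adjusted p = 0.172). In *pial1-2* it was at 11.3, 11.5 and 11.6 CPM, all above Col-0, with a log2 fold change of 0.09 (−0.09 to 0.28).

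Set against each other, *pial1/2* exceeded *pial1-2* in *CLSY1* by a log2 fold change of 0.42 (95% interval 0.23 to 0.62, adjusted p = 0.14), with no overlap between the libraries. The log2 difference from *pial2-1* was 0.04 (−0.16 to 0.24, adjusted p = 0.956). In both comparisons 0 of 9 members passed in edgeR and in DESeq2, with 1 member each at an unadjusted p under 0.05, *CLSY1* in the first and *SHH1* in the second. Of all features, 0.475% were called higher and 0.0152% lower against *pial1-2*, and 0.319% and 0.0354% against *pial2-1*. The call in *pial1/2* was lost, at adjusted p-values up to 0.236, when any of the 6 libraries was left out, with the log2 fold change between 0.48 and 0.55 throughout. With the replicate numbers as a block, which residuals showed to pair the libraries here, the adjusted p was 0.0169. The block called 163 features in *pial1/2* against Col-0 (99 without it), 52 in *pial2-1* (34 without it) and 16 in *mom2-1* (7 without it).

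*CLSY1* rose in *mom2-2* as well, to 13.9, 16.0 and 15.4 CPM, all above Col-0. The log2 fold change was 0.48 (SE 0.09, adjusted p = 0.00761), where 6.16% of features were called higher and 9.42% lower. This call held under each of the 12 alternatives, with adjusted p-values from 0.00469 to 0.0335. In the other allele, *mom2-1*, it was at 8.89, 13.4 and 8.88 CPM. One library was thus above Col-0 and the other 2 below it, with a log2 fold change of −0.06 (95% interval −0.43 to 0.31). The difference between the alleles, 0.54 (0.16 to 0.91), missed the threshold in edgeR (adjusted p = 0.0707) and passed in DESeq2 (0.0331), and was 0.76 and past the threshold without *mom2-1* replicate 2. *MOM2* itself was at 0.103, 0 and 0.104 CPM in *mom2-1* and at 1.27, 1.60 and 2.21 CPM in *mom2-2*. *CLSY1* was thus called higher only in the allele with more *MOM2* transcript left, and the reason was not tested. *AGO4* had an allele difference of 0.25 (0.09 to 0.41, adjusted p = 0.0505), so 0 of 9 members passed in edgeR, with 2 at an unadjusted p under 0.05 and 1 called by DESeq2, where 3.73% of features were called higher and 8.68% lower.

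In *aipp3-2*, *CLSY1* was at 13.9, 13.7 and 17.0 CPM. All 3 libraries were above Col-0, and it rose by a log2 fold change of 0.47 (SE 0.10, adjusted p = 0.0204), where 8.57% of features were called higher and 9.71% lower. The call was lost without Col-0 replicate 2 (adjusted p = 0.068) or 3 (0.08). Some markers of other tissues were also called higher in *aipp3-2*. The flower markers *AP3*, *PI* and *AG* rose (3 of 3), to a sum of 6.73 to 8.38 CPM from 1.68 to 3.16 CPM. In Col-0, *AP3* and *AG* were at most at 0.119 and 0.253 CPM. These genes entered the test (a CPM of at least 1 in at least 2 libraries) only through the mutant libraries, so only a rise could be called in them. The shoot meristem marker *STM* rose too (log2 0.61, adjusted p = 0.0178), and 1 of 3 such markers was tested. Of the 4 root markers, 2 were higher and 2 lower (log2 −0.42 to 0.50), and 1 passed, *PHT1;1* (log2 0.50, adjusted p = 0.0171). The 4 leaf and 6 dividing-cell markers did not pass in edgeR (3 and 2 of them at an unadjusted p under 0.05). In *aipp3-1* the same 3 flower markers were called higher as well, to a sum of 8.85 to 10.2 CPM, and *STM* did not pass (log2 0.58). There too, *AP3* and *AG* entered the test only through the mutant libraries. The part of these markers in the rise of *CLSY1* and *NRPD1* in *aipp3-2* was not tested. In *aipp3-1* *CLSY1* was at 9.22, 9.33 and 8.71 CPM. These libraries were all below Col-0, by a log2 fold change of −0.23 (95% interval −0.44 to −0.02, adjusted p = 0.142). The difference between the alleles was 0.71 (0.44 to 0.98), with an adjusted p of 0.124 in edgeR and 0.00622 in DESeq2. *NRPD1* showed the same order of alleles. It was at 9.31, 9.98 and 9.82 CPM in *aipp3-2*, against 7.47, 6.48 and 7.78 CPM in Col-0 and 6.45, 6.50 and 6.76 CPM in *aipp3-1*. *NRPD1* rose in *aipp3-2* by 0.42 (SE 0.10, adjusted p = 0.0285) but missed the threshold in DESeq2 (0.0527) and without Col-0 replicate 2 or 3 or any *aipp3-2* library (adjusted p up to 0.0811), and the allele difference of 0.56 (0.34 to 0.78) had an adjusted p of 0.163. Between the alleles 0 of 9 members passed in edgeR, with 2 at an unadjusted p under 0.05 and 1 called by DESeq2, where 0.0991% of features were called higher and 0.0297% lower. With the replicate block, which pairs these libraries, 42 features were called in place of 26.

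In *morc6-3*, mutated in the gene of the ATPase MORC6, *CLSY1* was at 13.9, 14.9 and 12.6 CPM, above each Col-0 library. It rose by 0.35 on the log2 scale (SE 0.10, adjusted p = 0.0412), where 5.60% of features were called higher and 8.48% lower, but not in DESeq2 (adjusted p = 0.0931) nor without any of 5 of the 6 libraries. In *morchex*, which carries *morc6-3* with 5 further *morc* mutations, it was at 12.9, 13.6 and 9.45 CPM. The groups overlapped, and the log2 fold change was 0.15 (95% interval −0.17 to 0.48). *morchex* and *morc6-3* differed by −0.21 (−0.55 to 0.13, adjusted p of 1), and between them 0 of 9 members passed or had an unadjusted p under 0.05 (edgeR, and 0 by DESeq2), where 0.0151% of features were called higher and 0.0201% lower (7 in all, and 45 with the replicate block). In *phd1-2* and *phd1-4* the log2 fold changes of *CLSY1* were 0.13 (−0.08 to 0.33) and 0.13 (−0.07 to 0.33), and in *nrpe1-11* 0.05 (−0.19 to 0.29). Between both *phd1* alleles 0 of 9 members passed or had an unadjusted p under 0.05 (edgeR, and 0 by DESeq2), where 0% of features were called in each direction. With the replicate block, which pairs these libraries, 59 features were called, 13 higher and 46 lower, and 8 were called by DESeq2.

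**Figure D3:**
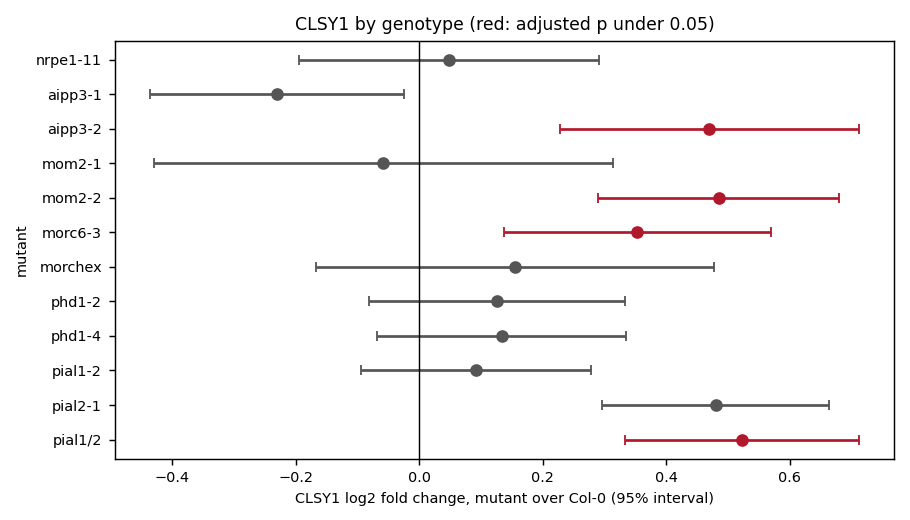
Log2 fold change of *CLSY1* over the Col-0 libraries of its set (x axis) in 12 mutants (y axis), with 95% intervals from edgeR, 3 libraries each. Red points passed an adjusted p of 0.05. *pial1/2* (0.52), *mom2-2* (0.48), *aipp3-2* (0.47) and *morc6-3* (0.35) passed, *pial2-1* (0.48) did not, and *aipp3-1* (−0.23) lies on the other side of 0.

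Both Col-0 sets could also be set against each other. Of 19995 features, 30.0% were called higher and 27.7% lower in the *nrpe1-11* set, so mutants were compared only with Col-0 of their own set. Of the members, 3 of 9 passed. *AGO6* was at 3.18, 2.77 and 3.23 CPM in Col-0 of the *nrpe1-11* set and 1.65, 1.58 and 2.25 CPM in the larger set (log2 0.74, adjusted p = 0.0115). *AGO4* was also higher (0.32, adjusted p = 0.00869), and *SHH1* was lower (−0.64, adjusted p = 0.00449). In these 3 genes the libraries of one Col-0 group did not overlap those of the other. Leaf markers summed to 21975 to 30360 CPM in the *nrpe1-11* set and 31055 to 50271 CPM in the larger set, but the 4 leaf markers moved both ways between the Col-0 groups. *RBCS1A* (10208 to 13561 against 6980 to 8444 CPM) and *GLDP1* (4579 to 5189 against 765 to 879 CPM) were higher in the *nrpe1-11* set, and the other 2, *LHCB1.3* and *CAB*, were lower. Of 6 dividing-cell markers 5 were lower and 1 higher, with sums of 117 to 129 CPM in the *nrpe1-11* set and 147 to 215 CPM in the larger set. Their part in the result was not tested, and in whole seedlings fewer cells of a type cannot be told apart from less RNA per cell.

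Over the 14 group means of log2 CPM, the genes most like each member were listed as a description, from 19624 genes. The pattern of *NRPE1* was nearest to AT5G27950 (Pearson r = 0.97) and *SUB1* (0.94), but r was 0.34 and 0.58 over the 12 groups without the *nrpe1-11* set. *CLSY1* had the lowest r with its nearest genes, AT2G24830 (0.72) and *CRF12* (0.71), and *NRPD1* was nearest to AT5G09672 (0.77) and AT3G52680 (0.75). *DCL3* was nearest to AT2G25420 (0.97) and *PRXCA* (0.91), *RDR2* to *EMB2261* (0.83) and AT1G04650 (0.81), and *NRPD2* to AT1G67865 (0.92) and *IRX14-L* (0.92). *SHH1* was nearest to AT3G27420 (0.98) and AT5G10710 (0.96), *AGO4* to AT1G03990 (0.95) and AT4G12670 (0.94), and *AGO6* to *KASI* (0.98) and AT4G19440 (0.97). Over the 12 groups without the *nrpe1-11* set, r with the same genes was 0.88 and 0.79 for *SHH1*, 0.87 and 0.87 for *AGO4*, and 0.83 and 0.74 for *AGO6*. It was 0.68 and 0.68 for *CLSY1*, 0.88 and 0.69 for *NRPD1*, and 0.97 and 0.90 for *DCL3*. For *RDR2* it was 0.83 and 0.82, and for *NRPD2* 0.91 and 0.86. The points share their libraries, and the 2 sets differ in most genes.

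A list of 25 other RdDM genes, including *DRM2*, *DRD1*, *DMS3*, *RDM1*, *SUVH2*, *SUVH9*, *IDN2*, *SPT5L* and the demethylase gene *ROS1*, was followed beside the members. In *nrpe1-11*, 1 of 23 tested genes passed (0 higher, 1 lower). This was *ROS1*, whose product removes DNA methylation, at 52.8, 48.0 and 58.5 CPM in Col-0 and 3.14, 5.22 and 3.99 CPM in the mutant. It fell by 3.68 on the log2 scale (SE 0.19, adjusted p = 0.000824). *MORC6* was at 24.8, 22.0 and 22.0 CPM in *nrpe1-11* and 16.9, 14.9 and 15.8 CPM in Col-0, with an adjusted p of 0.0584.

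The same demethylase gene separated both *aipp3* alleles. *ROS1* was at 0.145, 0.264 and 0.701 CPM in *aipp3-2*, at 54.0, 62.0 and 67.5 CPM in *aipp3-1* and at 43.8, 51.5 and 45.4 CPM in Col-0. It fell in *aipp3-2* by 6.94 on the log2 scale (SE 0.26, adjusted p = 2.01e-05), and the alleles differed by −7.32 (adjusted p = 0.00018). *DRM2*, the main de novo methyltransferase of the pathway, was at 5.53, 7.18 and 5.52 CPM in *aipp3-2*, 12.95, 16.3 and 13.6 CPM in *aipp3-1* and 17.9, 16.5 and 17.2 CPM in Col-0. It fell in *aipp3-2* by 1.50 (SE 0.12, adjusted p = 0.000632), with an allele difference of −1.24 (adjusted p = 0.0399). The allele difference of *DRM2* was lost without any of the 6 libraries (adjusted p up to 0.239).

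Of the 24 genes tested in *aipp3-1*, 2 rose and 1 fell, where 5.19% of features were called in each direction. *AGO9*, an Argonaute known from ovules, rose from 0.242 ± 0.0328 to 2.38 ± 0.923 CPM (SD, n = 3) and *CLSY3*, a CLASSY paralog, from a range of 0.528 to 1.07 CPM to 1.72 to 1.92 CPM. In both *aipp3* alleles *AGO9* entered the test only through the mutant libraries, so only a rise could be called in it. *CLSY3* needed the mutant libraries to enter the test as well. *FDM1*, an RNA-binding partner of IDN2, fell from 33.2 ± 0.660 to 26.4 ± 1.22 CPM. All 3 were called in the same direction in *aipp3-2*, where *CLSY2* (from a range of 1.01 to 1.46 CPM to 2.52 to 2.75 CPM) and *MORC6* (11.8 ± 1.47 to 15.5 ± 0.555 CPM) rose too. In *aipp3-2*, 4 of the 24 tested genes rose and 3 fell, where 8.57% of features were called higher and 9.71% lower. The flower markers *AP3*, *PI* and *AG*, of which *AP3* and *AG* were tested only through the mutant libraries, were called higher in both alleles, with a sum of 8.85 to 10.2 CPM in *aipp3-1*. Their part in the result was not tested. Elsewhere, *ROS1* rose in *pial1/2* (67.1 ± 2.45 against 46.9 ± 4.06 CPM, adjusted p = 0.0444), *SPT5L* fell in *morchex* (21.6 ± 1.68 against 27.9 ± 2.86 CPM, adjusted p = 0.0444) and *SUVH9* rose in *phd1-2* (44.4 ± 5.16 against 35.2 ± 2.61 CPM, adjusted p = 0.0488). Of the tested list genes, 1 of 23 rose in *pial1/2*, 2 of 22 fell in *morchex*, including 1 mutated in it, and 1 of 22 rose in *phd1-2*. The shares of all features called in those directions were 0.489%, 9.35% and 7.64%. The calls of *AGO9* and *CLSY2* in *aipp3-2* held under all 12 alternatives, while *AGO9* in *aipp3-1* missed the threshold without Col-0 replicate 2 (adjusted p = 0.0554). Each of the other calls of RdDM genes named in this paragraph was lost when some single libraries were left out. Adjusted p-values (edgeR) reached 0.108 and 0.0661 for *CLSY3* and 0.128 and 0.0545 for *FDM1* in *aipp3-1* and *aipp3-2*, 0.123 for *MORC6*, 0.267 for *ROS1*, and 0.161 for *SPT5L* and for *SUVH9*.

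**Figure D4:**
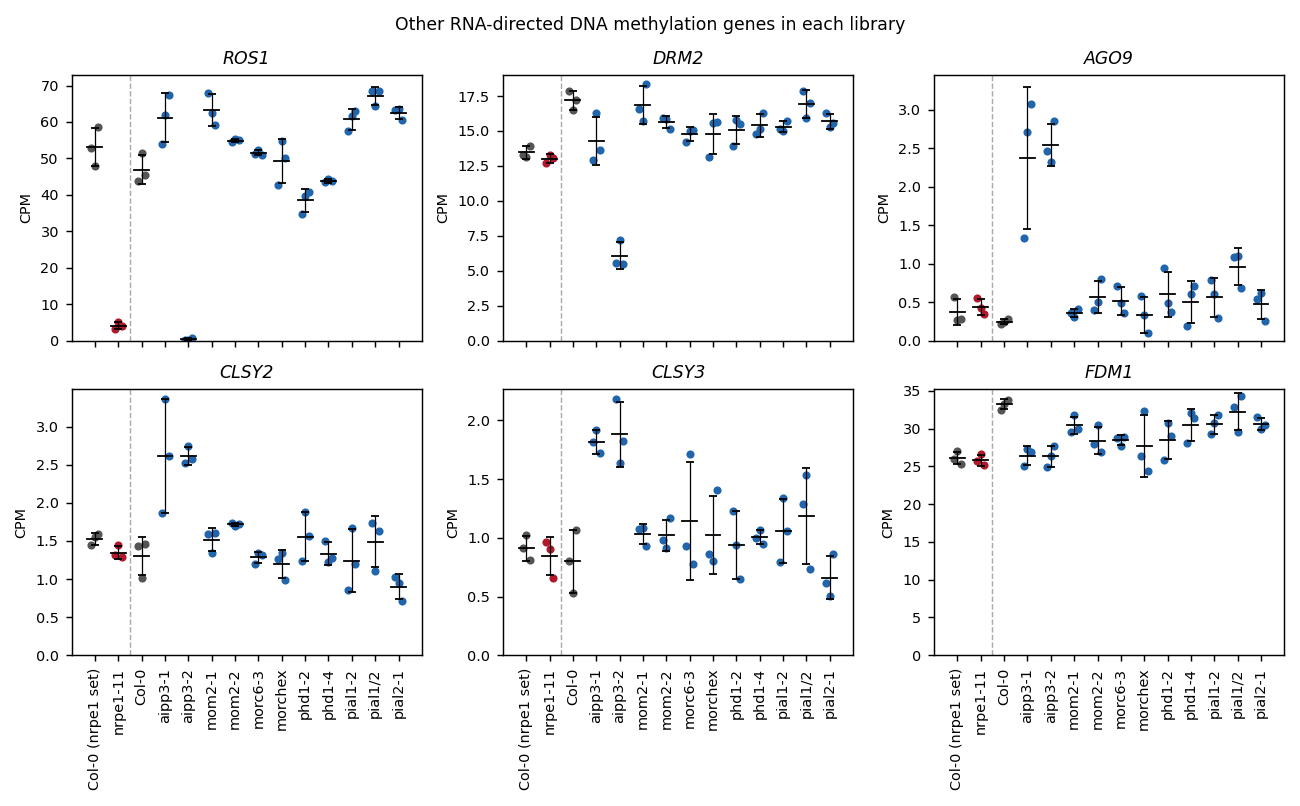
CPM (y axis, from 0) of 6 other RdDM genes in each of 42 libraries, by genotype (x axis). Points are libraries, bars are group means and error bars the SD of 3 libraries, with the dashed line between both sets. *ROS1* lies at 0.145 to 0.701 CPM in *aipp3-2* and 3.14 to 5.22 CPM in *nrpe1-11*, below all other groups.

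ChIP-seq peaks were then counted over each gene and the 1000 bp upstream of its start, beside all 27444 protein-coding genes. Flower buds were used for ChIP-seq and seedlings for RNA-seq, so the readouts come from different tissues. PIAL2-Myc chromatin was fixed with EGS and formaldehyde, and that of AIPP3, PHD1, PHD3 and MORC6 with formaldehyde alone, per the study's methods. MORC6-Myc replicates 1 and 2 each had a peak at 3 of the 9 members, where 25.7% and 11.0% of genes had one. These were *CLSY1*, *DCL3* and *NRPD2* in both replicates. PIAL2-Myc had a peak at 3 members in replicate 1 (*CLSY1*, *DCL3* and *AGO6*) and 1 in replicate 2 (*CLSY1*), where 21.3% and 5.41% of genes had one. PHD1-FLAG replicate 1 had a peak at *CLSY1* (8.43% of genes) and replicate 2 at 0 members (0.0583%). AIPP3-FLAG (18.5% and 10.0% of genes in its replicates), PHD3-FLAG (20.2%) and PHD3-Myc (3.34%) had a peak at 0 of the 9. *SHH1*, *RDR2* and *AGO4* had no peak in any of 18 lists. With 9 loci, these shares were not tested against their backgrounds.

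The strongest of these peaks lay upstream of *CLSY1*. In MORC6-Myc replicate 1 it ran from 2027 bases before the start to 429 bases into the gene, with a fold enrichment of 12.2 and a −log10 q of 122, and 8 of the 12249 intervals of that list had a higher −log10 q. In replicate 2 an interval from 2990 to 927 bases before the start had a fold enrichment of 5.47, and another over the start 2.96. In PIAL2-Myc replicate 1 a single interval of 4005 bp spanned the start (4.75-fold), and in replicate 2 the distal interval, from 2705 to 1290 bases before the start, reached 7.74-fold. PHD1-FLAG replicate 1 had weaker intervals over the same distal part (1.82-fold and 1.70-fold). Between the start of *CLSY1* and the next annotated locus upstream, the pseudogene AT3G42680, lie 2241 bp, and in 5 lists an interval reached across that pseudogene.

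In the 5 MORC6-Myc lines in Col-0 or *morc6* plants, the same region had fold enrichments of 14.9 and 14.4 (Col-0 lines) and 15.0, 16.6 and 15.5 (*morc6* lines). In the 3 lines in *pial1/2* plants an interval remained, from at most 1916 to at least 1300 bases before the start, with fold enrichments of 2.43, 2.76 and 3.88. These 3 values lay below all 5 others. The share of all genes with a MORC6-Myc peak was also lower, at a mean of 3.07% in the *pial1/2* lines and 24.8% in the other lines. A loss of binding in *pial1/2* is thus not particular to this locus. For how many other intervals the fold enrichments part in this way was not counted. The 433 bases from 1819 to 1387 before the start were inside an interval of all 10 MORC6-Myc lists, and part of them are the capitals of the window printed above. *CLSY1* transcripts in seedlings were above Col-0 in *pial1/2*, as given above. Whether binding and transcript level are linked was not tested.

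*DCL3* and *NRPD2* had weaker peaks. At *DCL3* the 7 MORC6-Myc lists outside *pial1/2* shared 271 bases from 357 to 87 before the start, with fold enrichments from 2.02 to 7.24. At *NRPD2* they shared 217 bases from 618 to 402 before the start, with 1.83 to 5.24. This part lies in the 841 bp between *NRPD2* and the divergent gene *AAE16*, so the interval cannot be given to one of them. Neither locus had an interval in any *pial1/2* line. *NRPE1* had a peak in 2 lists, *NRPD1* in 1 and *AGO6* in 3, with fold enrichments of 1.90 to 2.69, and the upstream *AGO6* intervals lay over the start of the divergent gene *COP1*. *DCL3* and *NRPD2* transcripts overlapped Col-0 in *pial1/2*, with log2 fold changes of 0.19 (95% interval −0.15 to 0.53) and 0.04 (−0.19 to 0.27).

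**Figure D5:**
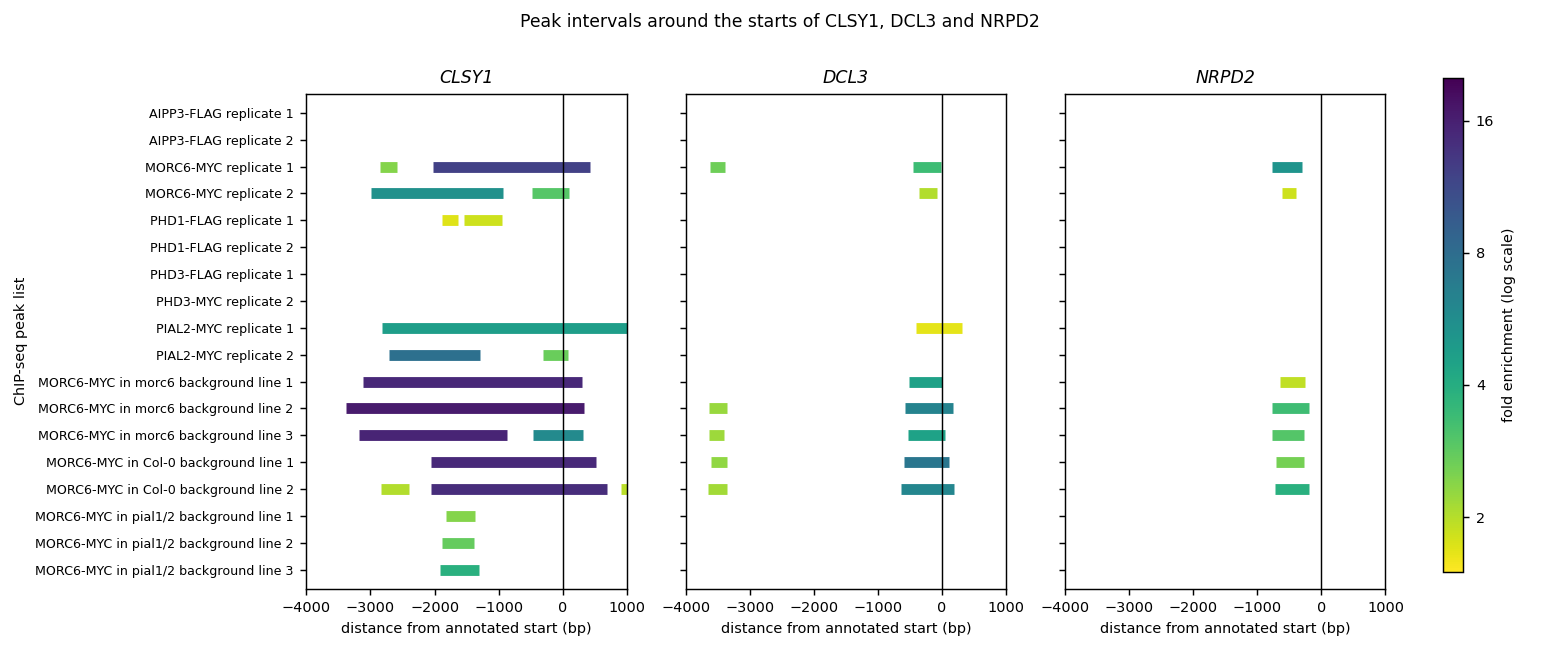
Peak intervals by distance in bp from the annotated start (x axis, start at 0, upstream negative) of *CLSY1*, *DCL3* and *NRPD2* in 18 ChIP-seq lists (y axis), coloured by fold enrichment on a log scale. *CLSY1* has long intervals of 5.47 to 16.6-fold in the 7 MORC6-Myc lists outside *pial1/2*, and short ones of 2.43 to 3.88-fold in the *pial1/2* lines, where *DCL3* and *NRPD2* have none. The far intervals in the *DCL3* panel lie beyond the next gene upstream.

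Counted per line, MORC6-Myc in *pial1/2* had a peak at 0, 0 and 0 of the 9 members (2.83%, 3.41% and 2.97% of all genes). The lines in Col-0 had 3 and 5 (19.3% and 32.2%), and those in *morc6* had 3, 6 and 3 (18.7%, 32.3% and 21.5%). The means were 0 and 4 (two-sided exact permutation test over 3 against 5 lines, p = 0.0357, the smallest this design can give). The fall over all genes, from a mean of 24.8% to 3.07%, was of the same kind, so it is not particular to the 9. With 2000 bp upstream, a window chosen after the *CLSY1* intervals were seen, each *pial1/2* line had 1 member, *CLSY1*, against a mean of 4 in the other lines (exact permutation test, p = 0.0357).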

How the data were processed

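RNA-seq was measured in 42 seedling libraries and ChIP-seq in 18 flower bud libraries. The authors aligned RNA-seq reads with bowtie2 and quantified them with RSEM at default settings, which gave the deposited expected counts, TPM and FPKM per gene and transposable element on TAIR10. ChIP-seq peaks were called by the authors with MACS2 (2.1.2) against Col-0 controls, 1 list per library, after Bowtie2 (2.4.2) and removal of duplicates with SAMtools (1.15), and the deposited lists give fold enrichment and −log10 p and q. Per the study's methods, peaks often found in earlier FLAG-antibody ChIP-seq of Col-0 were left out of its analysis. Whether such regions were also removed from the deposited lists is not given in the sources used here. The deposited bisulfite read counts per cytosine served only to check the build: 222 of 222 positions were cytosines in the reference, and 0 lay within 1000 bp of a member.

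Expected counts were rounded to whole numbers. Features with a CPM of at least 1 in at least 2 libraries of a comparison were tested with edgeR (4.0.16, TMM scaling, quasi-likelihood test) in R (4.3.3), over only the 6 libraries compared, with Benjamini-Hochberg adjustment over all features and a threshold of 0.05. The authors called differential expression with a Trinity script at a fold and an FDR limit. The method run inside that script is not given in the sources used here, so this test was chosen, and no fold limit was used. The test was run on simulated data with 100 features changed 1.4-fold and 100 changed 3-fold. The changed features were drawn only from those above a CPM limit that *AGO6*, *AGO9*, *CLSY2* and *CLSY3* do not reach, so the recovery does not apply to these genes. For *pial1/2* against Col-0 (19685 features) it recovered 27% and 99% of them, and 10.6% of its calls were false. For *aipp3-2* (19940 features) it recovered 26% and 100%, with 9.35% false. Both false shares were above the threshold of 0.05, so calls with an adjusted p just under it are less certain than that value states. A peak belonged to a gene if it overlapped the gene or 1000 bp upstream. Peak counts were compared by an exact permutation test (scipy 1.17.1).

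Same-numbered libraries deviated together (r above 0.1 in all 3 pairs, over 12878 features) in 6 of 19 comparisons: *mom2-1*, *pial2-1* and *pial1/2* against Col-0, *morchex* against *morc6-3*, and between the *aipp3* and the *phd1* alleles. No 2 replicates held identical values. Library totals ranged from 13164594 to 33464598, and the precision of a member rests on its 18 to 1716 counts. Named were all members, the other RdDM genes that passed in at least 1 mutant, and the 2 genes most like each member. Alternatives were RLE scaling, library totals only, no CPM filter, DESeq2 (1.42.0), all 42 libraries in 1 fit, a replicate block, each library left out, and other peak windows and limits. The members are given by name and role, with no threshold on a measured value, but they and the gene lists were chosen with earlier results of these data known. The motif search upstream of *CLSY1* is not reported here.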

Additional observations from a re-analysis of the deposited data

Results flagged for a closer look

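The *aipp3* alleles differed in 2 other RdDM genes by a test of the difference itself. *ROS1* was lower in *aipp3-2* than in *aipp3-1* by a log2 difference of −7.32 (edgeR, adjusted p = 0.00018) and *DRM2* by −1.24 (adjusted p = 0.0399), with no overlap between the 3 libraries of each allele. The *DRM2* difference missed the threshold when any 1 of the 6 libraries was left out (adjusted p up to 0.239). Groups of 3 libraries were too small to be tested for single libraries that stood apart.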

How the results depend on the processing

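Of the 456 alternative values of the 38 gene results that were called, 0 had the other direction. The 38 include results called between both Col-0 sets. The alternatives reuse the same libraries and begin from results past the threshold, so a change of direction was unlikely from the start. The count of members that passed changed as follows. With all 42 libraries in 1 fit it went from 1 to 2 in *nrpe1-11* (*NRPD1* added), from 0 to 1 between the *aipp3* alleles and from 0 to 2 between the *mom2* alleles. In DESeq2 it was 1 in *aipp3-2* (from 2), 0 in *morc6-3* (from 1), and 1 (from 0) in *pial2-1*, between the *aipp3* alleles and between the *mom2* alleles. With the replicate block it was 1 in *aipp3-2*, 0 in *morc6-3* and 1 between the *mom2* alleles, where the numbers did not pair the libraries. In the 6 paired comparisons the block changed no member's call. Without the CPM filter it was 0 in *morc6-3*, with library totals only 0 in *pial1/2*, and with RLE scaling or library totals only 1 between the *mom2* alleles (*AGO4*). Leaving out 1 library gave 0 to 2 members in *aipp3-2*, 0 to 1 in *morc6-3*, 0 in *pial1/2* and 0 to 1 between the *mom2* alleles. The causes were not tested.

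Of all features, the count called ranged over the alternatives from 97 (without Col-0 replicate 2) to 3596 around 2081 in *aipp3-1*, from 1570 to 4326 around 3679 in *aipp3-2*, from 1659 to 3376 around 3094 in *mom2-2*, from 1343 to 3374 around 2798 in *morc6-3*, from 1418 to 4587 around 3362 in *morchex*, from 1517 to 3504 around 3317 in *phd1-2* and from 1849 to 3935 around 3810 in *phd1-4*. It ranged from 49 to 218 around 106 in *nrpe1-11*, from 5 to 16 around 7 in *mom2-1*, from 12 to 198 around 38 in *pial1-2*, from 10 to 142 around 34 in *pial2-1* and from 73 to 163 around 99 in *pial1/2*. Between mutants it ranged from 2 to 45 around 7 for *morchex* against *morc6-3*, from 72 to 165 around 97 for *pial1/2* against *pial1-2*, from 24 to 152 around 70 against *pial2-1*, from 6 to 94 around 26 for the *aipp3* alleles, from 1167 to 2995 around 2458 for the *mom2* alleles and from 0 to 59 (with the replicate block) around 0 for the *phd1* alleles.

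With the gene body as the only window, members with a peak were 1 in each MORC6-Myc replicate (from 3), 1 in *morc6* line 1 (from 3), 3 in Col-0 line 2 (from 5) and 0 in PHD1-FLAG replicate 1 (from 1), which was also 0 with 500 bp upstream or an overlap of at least 100 bp. With 2000 bp upstream, chosen after seeing the data, each *pial1/2* line had 1. Leaving out 1 line gave differences of −4.25 to −3.5 members between *pial1/2* and other lines, with p = 0.0571 or 0.0952 in the exact permutation test, the smallest those designs allow. Depth limits *AGO6* most, which had as few as 18 counts in a library.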
